A study of Mus musculus with 14 samples.

Results

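Brain macrophages that carry Arg1 were set against the monocytes that circulate in mice with the same injury. The Arg1+ brain macrophages were on 4 arrays and the post-TBI blood monocytes on 3, together 7 of the 14 arrays of the series, and these were chosen by their sample titles alone. All cells came from male YARG mice of 12 to 16 weeks, which carry a fluorescent reporter at the Arg1 locus, so a sort by the reporter follows the activity of that locus. TBI is a controlled cortical impact, in which a piston strikes the exposed brain, and both groups were collected 1 day after it. The other arrays hold Arg1- brain macrophages of injured mice (4 arrays, day 1) and blood monocytes of untreated mice (3 arrays). Operated mice without the impact were not analysed here. Brain cells were freed with collagenase and DNase and purified on Percoll, blood cells were separated on ficoll, and both were stained for CD45, CD11b, Ly6G and F4/80, the antigen that Adgre1 encodes, before the sort. The gates that set each population apart are not given in full in the sources used here. The preparation therefore differs between the groups in the same way as the tissue does, and the effects of both cannot be told apart. RNA was taken from whole sorted populations, in which fewer cells of a type and less RNA per cell cannot be told apart. The labels do not say that replicates are separate animals, so each p-value measures only the spread between these samples.

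Monocytes circulate in an inflammatory, Ly6C-high form that enters injured tissue through the receptor Ccr2, and in a patrolling, Ly6C-low form that crawls along vessel walls. Inside tissue, inflammatory monocytes become macrophages that clear debris. The brain also has its own resident macrophages, the microglia, which carry some, but not all, of the antigens stained before the sort. Arginase, the product of Arg1, breaks arginine down to ornithine, the precursor of polyamines and proline, and competes for arginine with the nitric oxide synthase encoded by Nos2.

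Levels are given as log2 of the spot signal relative to the 75th percentile of the same array, so 0 is the brightness of that percentile and -4.32 is the floor, below which no value is resolved. A difference is the mean of the Arg1+ arrays minus that of the post-TBI monocyte arrays, ± its standard error from limma, and a gene is called at a Benjamini-Hochberg adjusted p under 0.05. Where one side was below background or at the floor on every array, its level is only a bound and the difference is given as at least N-fold.

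Over all tested genes, probes without a symbol included, Arg1+ cells gained and lost RNA in about equal numbers. Of 21972 tested genes 8770 were called, 39.9% of all, with 4378 higher in Arg1+ cells (19.9%) and 4392 lower (20.0%). Among the 12966 with a symbol 3157 were higher and 2097 lower, so gains outnumbered losses there. The gene lists hold only genes with a symbol, so 19.9% and 20.0% are only a rough background for them. Differences of at least 4-fold numbered 823 upward and 754 downward among the called genes. The median over all tested genes was -0.03, or 0.15 with normexp background correction. The arrays of the 2 groups did not overlap for 8720 genes, 39.7% of those tested. Slide is a technical batch here, and 3 of the 4 slides held 1 array of each group. Of the 8770 called genes 8561 kept 1 direction across those 3 slides, where a slide without a usable value was passed over. The calls came from these same arrays, so such agreement is largely built in. With slide as a block 9887 genes were called. Between groups the arrays correlated across genes at r 0.837 to 0.886, against 0.965 to 0.980 among Arg1+ arrays and 0.937 to 0.985 among post-TBI monocyte arrays. Genes do not count as replicates, and these correlations are a description. Post-TBI monocyte replicate 4 had the lowest median correlation with its own group, 0.949.

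**Figure D1:**
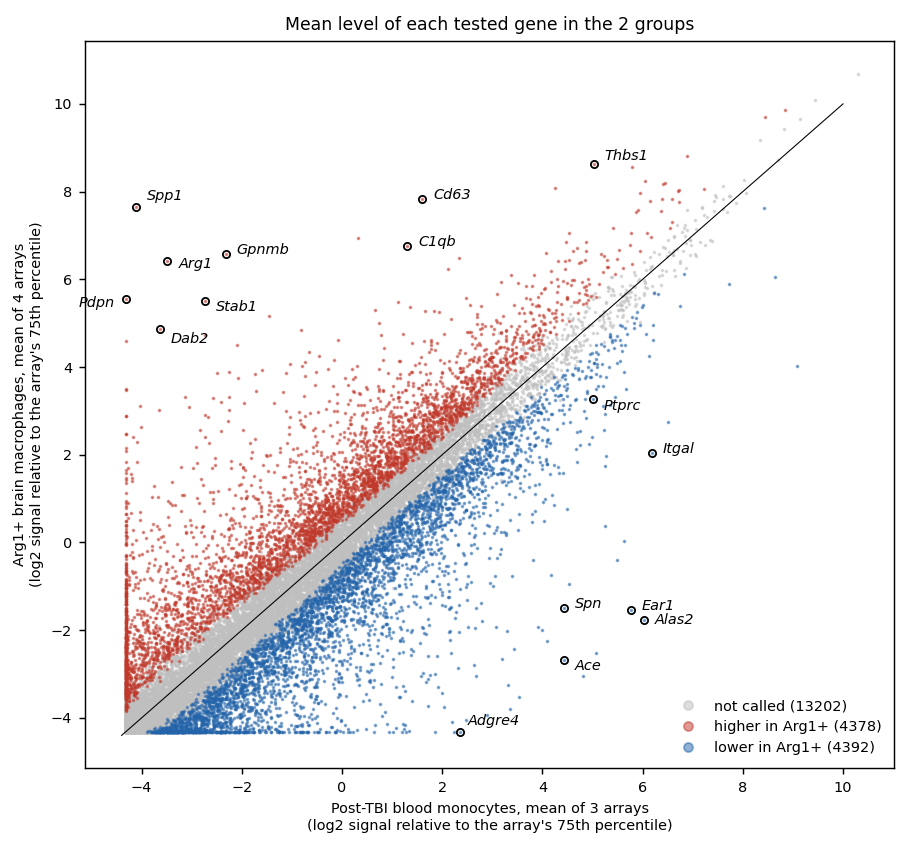
Mean log2 level of each tested gene in post-TBI blood monocytes (x axis, 3 arrays) and in Arg1+ brain macrophages (y axis, 4 arrays), in units of log2 signal relative to each array's 75th percentile, with the line of equal levels. Red points are the 4378 genes called higher and blue points the 4392 called lower, and the circled Spp1, Arg1 and Pdpn lie far above the line and Alas2 and Ace far below it.

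The labelled identity of each group was visible in its marker genes. Arg1 was at 6.82, 6.20 and 6.21 on the 3 Arg1+ arrays with a usable spot and at -3.58, -3.62 and -3.25 in post-TBI monocytes. No array of one group came near the other. The difference was 9.90 ± 0.46 (limma adjusted p = 1e-09). Since the sort used the reporter at this gene, this is not an independent result. A contrast with blood monocytes cannot show how well the sort parted Arg1+ from Arg1- cells. Over the 4 markers (Arg1, Spp1, Gpnmb and Ace) the median difference from these monocytes was 9.40 in Arg1+ cells and 7.20 in Arg1- cells. Among the genes behind the sorting antibodies, Itgam, which encodes CD11b, did not pass (0.47 ± 0.19, limma adjusted p = 0.0655, but 0.0397 to 0.0446 without Arg1+ replicate 3 or 4 or monocyte replicate 1), nor did Adgre1 (-0.34 ± 0.19, adjusted p = 0.19, 0.0348 with quantile normalization). Ptprc, which encodes CD45, was at 2.98, 3.63, 3.30 and 3.15 in Arg1+ cells and at 5.15, 4.93 and 4.95 in monocytes. It was lower in Arg1+ cells (-1.75 ± 0.18, adjusted p = 1.79e-06) with no overlap. Of 9 tested genes of the myeloid core list 2 were higher and 1 was lower, against 19.9% and 20.0% of all tested genes. The median was 0.10, which turned to -0.31 with quantile normalization and -0.04 with normexp background correction. The lipopolysaccharide co-receptor Cd14 was higher (2.05 ± 0.31), and the Fc receptor Fcgr3 was higher by 0.67 with overlapping arrays (adjusted p = 0.0425), a call lost in 20 of 27 alternatives, among them without monocyte replicate 1 (0.41, adjusted p = 0.19).

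The largest measured gain was Spp1, which encodes osteopontin, a secreted matrix and adhesion protein. It was at 7.64, 7.42, 8.09 and 7.43 on the 4 Arg1+ arrays and at -3.77, -4.32 and -4.22 on the 3 monocyte arrays. Every Arg1+ array was bright and the monocyte arrays lay at or near the floor, a difference of 11.75 ± 0.20 (limma adjusted p = 1.39e-14). Gpnmb, a glycoprotein of lysosome-rich macrophages, was at 6.59, 6.39 and 6.73 on 3 usable Arg1+ arrays and at -3.11, -1.26 and -2.61 in monocytes, a difference of 8.89 ± 0.50 (adjusted p = 6.83e-09). This value is from the brightest probe of Gpnmb, and its other probe gave a difference of 3.88. Among the losses Ace, the angiotensin-converting enzyme that marks patrolling monocytes, was at -3.83, -2.82, -2.78 and -1.25 in Arg1+ cells and at 4.04, 4.33 and 4.89 in monocytes. The groups were far apart, with a difference of -7.09 ± 0.43 (adjusted p = 7.9e-09), although the Arg1+ arrays spread over more than 2 units. Against Arg1- brain macrophages, Spp1 was higher by 1.60 (adjusted p = 0.000142) and Ace lower (-2.34, adjusted p = 0.00312), while Gpnmb did not pass (1.14, adjusted p = 0.208). In that comparison 1108 of the 21972 genes were called, 5.04%.

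The 250 bases before the transcription start are shown for Spp1 and Ace, the genes that head the gain and the loss among the markers, since these windows are where the motifs below were searched. Both sequences are from RefSeq on GRCm38.p6, plus strand, Spp1 at chr5:104434861-104435110 and Ace at chr11:105967698-105967947, with capitals for motif matches.
Spp1: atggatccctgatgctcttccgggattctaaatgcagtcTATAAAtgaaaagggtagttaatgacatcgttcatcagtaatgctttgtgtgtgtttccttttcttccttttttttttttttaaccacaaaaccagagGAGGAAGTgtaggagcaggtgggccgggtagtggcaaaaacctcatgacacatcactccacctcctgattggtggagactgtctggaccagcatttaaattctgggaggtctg
Ace: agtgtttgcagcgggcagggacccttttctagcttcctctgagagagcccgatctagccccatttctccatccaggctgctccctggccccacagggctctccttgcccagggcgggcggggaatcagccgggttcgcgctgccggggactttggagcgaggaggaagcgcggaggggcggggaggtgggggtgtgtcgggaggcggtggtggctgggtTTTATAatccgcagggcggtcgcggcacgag
Each motif was searched on both strands. TGANTCA is the element of AP-1, the dimer of Jun and Fos proteins. CACGTG is the palindromic E-box. The core of the hypoxia response element, ACGTG, also lies within that E-box, so their matches overlap. TGATGNAA stands for ATF4, TGACNNNGC for the antioxidant response and GAGGAAGT for the macrophage factor PU.1. The last motif searched was the TATA box, TATAAA. The Spp1 window held TATAAA at 211 to 206 bases and GAGGAAGT at 113 to 106 bases before the start, and the Ace window held the TATA letters on the minus strand at 31 to 26 bases. Of 27025 RefSeq windows of the same length 3504 held TATAAA and 660 (2.44%) GAGGAAGT on either strand. The window of Gpnmb held none of the 7 motifs, which says only that these letters are not in it. Among the 10377 tested genes with a window, ACGTG was in 20.8%, against 23.6% of the 2550 called higher and 19.1% of the 1674 called lower, and CACGTG was in 7.98%, 9.88% and 6.81%. TGANTCA was in 4.72%, 4.75% and 5.08%. TGATGNAA was in 2.11%, 2.39% and 2.09%, TGACNNNGC in 11.8%, 13.2% and 11.7%, and GAGGAAGT in 2.42%, 2.59% and 3.52%. TATAAA was in 7.97%, 6.98% and 7.47%. These shares describe letters, not bound sites.

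Other large gains included genes of adhesion, uptake and secretion. Pdpn, which encodes the mucin-like surface protein podoplanin, was at 5.59, 5.82 and 5.21 on 3 usable Arg1+ arrays and at the floor on each monocyte array, at least 930-fold higher (limma adjusted p = 4.27e-12). Ccl7, an attractant of monocytes, was at 4.43, 4.97, 4.52 and 4.44 against the floor on each monocyte array, at least 482-fold higher. Stab1, a scavenger receptor for modified lipoproteins, was at 5.47, 5.54 and 5.53 on 3 usable Arg1+ arrays and at -2.99, -2.87 and -2.36 in monocytes (8.26 ± 0.31). Each of these genes separated the groups by more than the whole spread within them. Dab2, an endocytic adaptor, was higher by 8.52 ± 0.28. The synaptic-vesicle family member Syngr1 was at least 222-fold, the hyaluronidase Hyal1 at least 148-fold and the activin subunit Inhba at least 147-fold higher. Emp1, a membrane protein, was higher by 7.47 ± 0.53 with 2 usable Arg1+ spots.

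The largest losses included Adgre4 and Cd300e of the patrolling monocyte list. Adgre4, a receptor of the same family as Adgre1, was at the floor on all 4 Arg1+ arrays and at 2.78, 2.56 and 1.73 in monocytes, at least 88.8-fold lower (limma adjusted p = 1.12e-10). The egress receptor S1pr5 was likewise at the floor in Arg1+ cells and at 2.44, 2.40 and 1.89 in monocytes, at least 81.9-fold lower, and the protease inhibitor Serpinb10 at least 62.7-fold lower. The activating receptor Cd300e was at -3.16, -3.89, -3.42 and -2.53 in Arg1+ cells and at 3.35, 3.17 and 3.39 in monocytes (-6.55 ± 0.32). Genes of the ribonuclease A superfamily fell in the same range: Ear10 (-7.85 ± 0.40), Rnase2a (-7.59 ± 0.38, 2 usable monocyte arrays), Ear1 (-7.31 ± 0.26) and Ear6 (-6.83 ± 0.26). These are close paralogs whose probes can take up each other's RNA, so no single member is certain. Alox12, a lipoxygenase of platelets, was at -4.32, -4.32, -3.27 and -2.19 in Arg1+ cells and at 2.65, 3.07 and 4.86 in monocytes (-7.05 ± 0.65), with monocyte replicate 4 highest (-6.39 without it).

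The genes of the patrolling monocyte were lower almost throughout. Of 17 tested members 16 were lower and 0 higher, with a median of -3.67, and within the 3 slides the median lay between -4.35 and -3.58. Spn, the sialophorin CD43, was at -2.09, -1.13, -1.13 and -1.66 in Arg1+ cells and at 4.54, 4.42 and 4.33 in monocytes, a difference of -5.93 ± 0.23 (limma adjusted p = 6.55e-11). Cx3cr1, the fractalkine receptor that is also a marker of microglia, was at 2.05, 3.11, 2.17 and 2.17 in Arg1+ cells and at 3.59, 3.69 and 3.81 in monocytes. Its groups did not overlap either, but the difference was smaller (-1.32 ± 0.24, adjusted p = 0.000586) and Arg1+ replicate 2 stood above the other 3. The 1 member not called was the fatty acid binding protein Fabp4 (-0.02), named here after its value was seen.

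Genes of the inflammatory monocyte were split. Of 13 tested members 8 were lower and 3 higher, with a median of -1.88. The membrane protein gene Ifitm6 was at -0.75, -0.26, -0.90 and -1.11 in Arg1+ cells and at 4.06, 4.20 and 4.24 in monocytes (-4.92 ± 0.21, limma adjusted p = 2.04e-10). Ly6c2, which encodes the antigen that names this subset, was at 2.45, 2.69, 3.10 and 3.13 in Arg1+ cells and at 4.74, 4.72 and 5.12 in monocytes (-2.02 ± 0.22). Ccr2 was at 1.90, 2.51, 1.64 and 1.37 and 3.78, 3.45 and 2.44. It was lower (-1.37 ± 0.31, adjusted p = 0.00252), and Arg1+ replicate 2 overlapped monocyte replicate 4. The members higher in Arg1+ cells were Thbs1, the matrix glycoprotein thrombospondin (3.61 ± 0.47, or 4.20 without monocyte replicate 4), F10, coagulation factor X (2.02 ± 0.24), and Fn1, fibronectin (1.75 ± 0.31, 2 usable monocyte arrays).

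**Figure D2:**
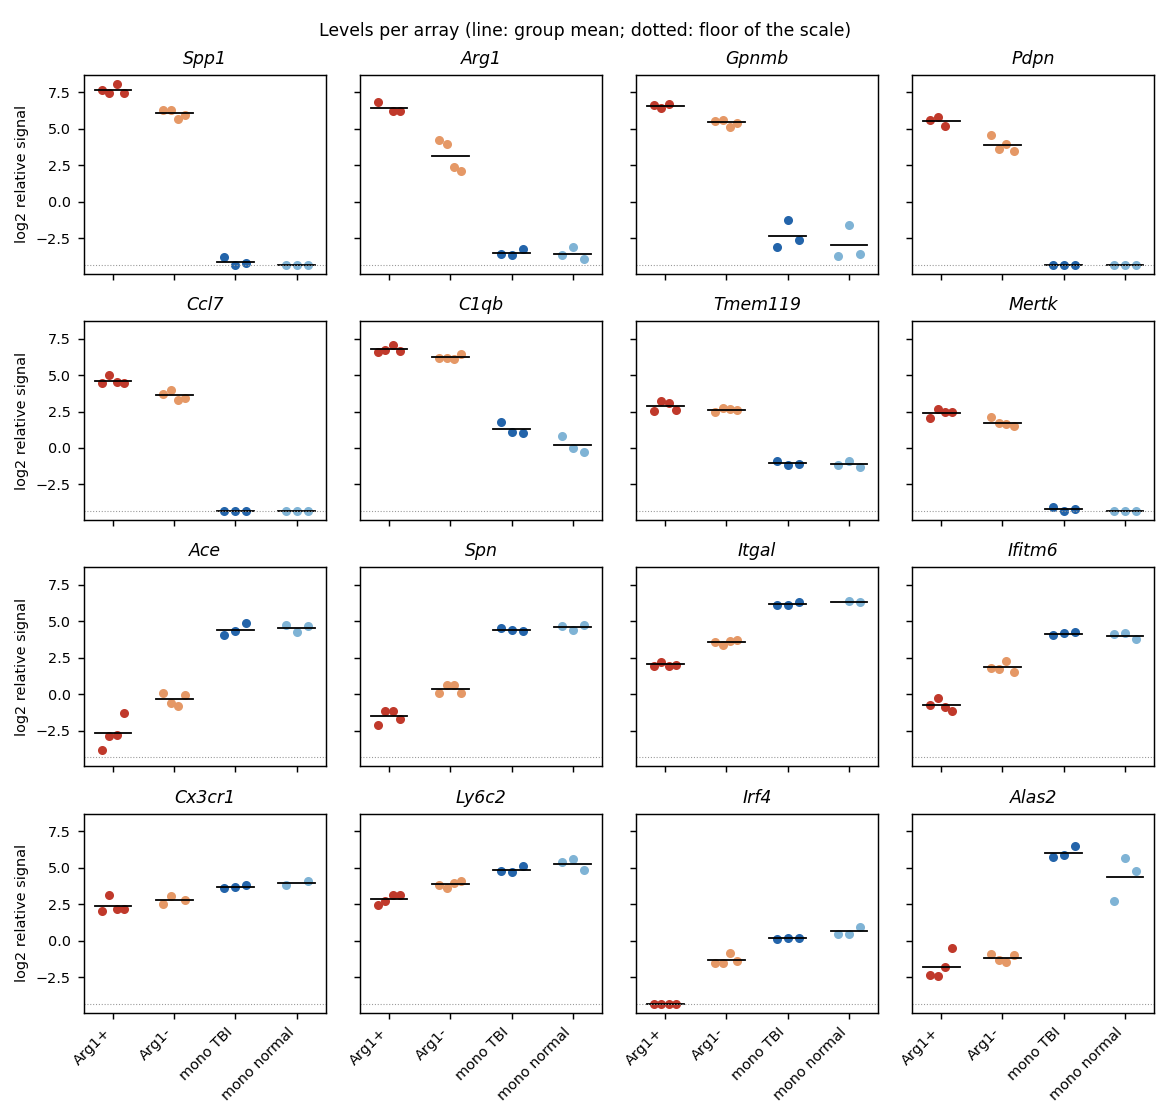
Log2 level relative to the array's 75th percentile for 16 genes on each array of the 4 groups (points, with the group mean as a line and the floor at -4.32 dotted): Arg1+ and Arg1- brain macrophages and post-TBI and normal blood monocytes. In the genes gained, such as Spp1 and Ccl7, both brain groups stand above both blood groups, and in those lost, such as Spn and Itgal, Arg1+ arrays lie lowest.

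Adhesion molecules moved in both directions. Of 23 tested members 6 were higher (26.1%) and 10 lower (43.5%), against 19.9% and 20.0% of all tested genes. The median was -0.20. Itgal, the alpha chain of the integrin LFA-1, with which leukocytes adhere to vessel walls, was at 1.97, 2.22, 1.96 and 2.02 in Arg1+ cells and at 6.10, 6.15 and 6.31 in monocytes (-4.14 ± 0.14, limma adjusted p = 4.69e-11). The arrays of each group agreed within 0.3 units while the groups were far apart. The tetraspanin Cd63 of late endosomes was at 7.81 and 7.83 on 2 usable Arg1+ arrays and at 1.58, 1.26 and 1.95 in monocytes (6.22 ± 0.59), and the integrin chain Itgb5, which takes part in binding dying cells, was higher by 1.97 ± 0.18. Itgb3, an integrin chain that is also on the platelet list, was lower (-4.45 ± 0.47).

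Receptors for attractants and for tissue egress moved in both directions. Of 26 tested members 9 were higher and 11 lower, against 19.9% and 20.0% of all tested genes. Their median was 0.29 and differed in sign between slides (-0.30 to 0.17). S1pr1, a receptor for the egress lipid sphingosine phosphate, was at 1.07, 1.10, 1.19 and 0.98 in Arg1+ cells and at -3.55, -3.02 and -2.88 in monocytes, higher by 4.23 ± 0.27 (limma adjusted p = 1.36e-08), opposite to S1pr5. Ccr3, best known from eosinophils, was at least 21.3-fold lower. Monocyte replicate 4 was the highest for Ccr3 (2.22, against -0.91 and -0.41), and without it the fitted difference was -3.61 in place of -4.57, and without replicate 1 it was -5.18.

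Chemokine genes were higher in Arg1+ cells in most cases tested. Among CC chemokines 9 of 14 were higher and 1 lower (median 2.40), and among CXC and other chemokines 6 of 10 were higher and 1 lower (median 3.60). For Arg1- cells against the same monocytes the medians of these lists were 2.87 and 3.23. Ccl24, an eosinophil attractant linked to alternative activation, was at 4.17, 4.06, 3.33 and 3.42 in Arg1+ cells and at -1.49, -1.95 and -2.79 in monocytes (5.82 ± 0.35, limma adjusted p = 7.03e-09). Ccl12, a mouse attractant of monocytes that signals through Ccr2, was at 1.30, 1.62, 1.67 and 1.31 against the floor in each monocyte array, at least 55.7-fold higher. The neutrophil attractant Cxcl3 was at 4.53, 3.65, 2.84 and 2.93 against the floor, at least 224-fold higher, and its relative Cxcl1 was at 3.02, 0.37, 1.06 and 1.40 against -4.32, -4.32 and -3.93 (5.65 ± 0.53). Both were highest on Arg1+ replicate 1. Cxcl14 was higher by 4.82 ± 0.25. In the other direction, the T cell attractant Ccl5 was lower (-1.15 ± 0.27) and the interferon-gamma-induced Cxcl9 at least 3.81-fold lower, although the Cxcl9 call was lost with normexp background correction (adjusted p = 0.0688).

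Inflammatory mediators were more often higher, 12 of 21 against 4 lower (median 1.56). Tnf, an early cytokine of activated macrophages, was at 3.21, 2.49, 3.20 and 2.86 in Arg1+ cells and at -0.40, -1.21 and -0.30 in monocytes (3.58 ± 0.37, limma adjusted p = 1.93e-06). Il1a was higher by 4.31 ± 0.31. Il1b, its relative, was at 2.00, 0.67, 0.90 and 0.80 and 1.65, 1.09 and 1.68, with overlapping arrays. Its difference of -0.38 ± 0.31 did not pass (adjusted p = 0.374), though without Arg1+ replicate 1 it was -0.68 (adjusted p = 0.0476). Nos2 was at -0.92, -0.95, -2.27 and -1.81 in Arg1+ cells and at the floor in each monocyte array, at least 7.12-fold higher (adjusted p = 1.32e-05), so the RNAs of both enzymes that use arginine were above those of monocytes. Alox5, the enzyme that starts leukotriene synthesis, was lower (-2.02 ± 0.34), as was Lcn2, a siderophore-binding protein that is also on the neutrophil list (-2.70 ± 0.72).

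The genes of alternative activation, which macrophages enter under IL-4, did not move as 1 group. Of 24 tested members 13 were higher and 9 lower (median 1.28). For Arg1- cells against the same monocytes the median was 1.85. Directly against Arg1- cells, 4 members were called higher and 9 lower, where 5.04% of all tested genes were called. Besides Arg1, Stab1 and Ccl24, the mannose receptor Mrc1 was at 1.98, 1.43, 1.35 and 0.78 in Arg1+ cells and at -3.93, -3.24 and -3.04 in monocytes (4.79 ± 0.46, limma adjusted p = 1.03e-06). Other genes of the same state were lower: Chil3, a chitinase-like protein, was at 4.27, 4.60, 4.47 and 3.66 against 6.39, 6.34 and 5.64 (-1.88 ± 0.27, adjusted p = 6.22e-05). Retnla was at the floor in Arg1+ cells and at least 3.39-fold lower, a call that was lost with normexp background correction (adjusted p = 0.364). Alox15, a lipoxygenase also known from eosinophils, was at -3.20, -2.46, -3.81 and -4.10 in Arg1+ cells and at -0.35, 0.54 and 3.58 in monocytes, with replicate 4 far above the other monocyte arrays (-4.65 ± 0.90, or -3.49 without it and -5.45 without replicate 1). Irf4, a transcription factor of this state, was at the floor on every Arg1+ array and at 0.11, 0.17 and 0.19 in monocytes, at least 19.3-fold lower (adjusted p = 5.75e-10). Irf4 was lower than in Arg1- brain macrophages as well (-2.99, adjusted p = 4.27e-06).

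Genes of arginine and polyamine metabolism were higher for 14 of 23 tested members and lower for 1 (median 1.25). The list holds Arg1 itself. Arg2, the mitochondrial arginase, was at 0.63, 0.12, 0.26 and 0.22 in Arg1+ cells and at -4.32, -3.44 and -3.23 in monocytes (3.97 ± 0.26, limma adjusted p = 1.81e-08). Slc7a11, a cystine transporter that is also a gene of oxidative defence and of amino acid stress, was at 2.15, 1.17, 1.45 and 0.96 and close to the floor in monocytes, at least 53.4-fold higher. The 1 lower member was the antizyme Oaz2, which restrains polyamine synthesis (-0.93 ± 0.15).

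Genes of the lysosome were higher for 28 of 33 tested members and lower for 0, with a median of 1.21 and of 1.10 to 1.29 within slides. The cysteine protease Ctsk, best known from osteoclasts, was at 3.30, 4.25, 4.01 and 4.17 in Arg1+ cells and at -1.09, -1.06 and -2.62 in monocytes (5.52 ± 0.33, limma adjusted p = 5.22e-09). Ctsl, another cathepsin, was at 3.95, 4.07, 3.81 and 3.59 against -0.89, -1.02 and -1.44 (4.97 ± 0.22), and Gla, the galactosidase that clears glycolipids, was higher by 3.70 ± 0.21. Each of these 3 genes had every Arg1+ array more than 3 units above every monocyte array. On the osteoclast-type list, which shares Spp1, Gpnmb and Ctsk with the others, 13 of 22 were higher and 4 lower (median 1.45). One of the lower members was Car2, carbonic anhydrase, which red cells also carry, at -3.31, -2.69, -2.38 and -1.38 in Arg1+ cells and 2.71, 3.33 and 4.24 in monocytes (-5.87 ± 0.63).

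Receptors that take up debris and dying cells were higher for 13 of 29 tested members and lower for 5 (median 0.30). Mertk, a kinase receptor through which macrophages engulf dying cells, was at 2.03, 2.66, 2.50 and 2.46 in Arg1+ cells and within 0.3 units of the floor in monocytes (6.59 ± 0.20, limma adjusted p = 5.24e-12). The lipoprotein receptor Scarb1 was lower (-2.17 ± 0.16). Cd36, a scavenger receptor, was at 1.69, 1.65, 1.48 and 1.18 in Arg1+ cells and at 0.14, 0.76 and 1.25 in monocytes, with overlap. Its call (0.78, adjusted p = 0.0247) was lost without Arg1+ replicate 1 or 2 or monocyte replicate 1 or 3, with adjusted p up to 0.14. Among Fc and pattern-recognition receptors 11 of 22 were higher and 7 lower (median 0.50). Clec4n, the lectin Dectin-2, was at 4.85, 5.19, 4.70 and 4.60 against -0.13, -0.83 and -1.49 (5.65 ± 0.26), and the related Clec4d was higher by 3.96 ± 0.24. Trem3 (-3.02 ± 0.18) and the peptidoglycan sensor Nod1 (-2.92 ± 0.25) were lower.

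Genes of lipid handling were higher for 13 of 27 tested members and lower for 9 (median 0.43). Abca1, which exports cholesterol, was at 4.31, 4.15 and 3.90 on 3 usable Arg1+ arrays and at -0.70, -0.56 and -0.98 in monocytes (4.87 ± 0.22, limma adjusted p = 7.42e-10). Hilpda, which protects lipid droplets from breakdown and is induced by hypoxia, was higher by 4.69 ± 0.31. The sterol hydroxylase Cyp27a1 was lower (-3.39 ± 0.22). Genes of cholesterol and fatty acid synthesis were higher for 5 of 32 and lower for 9 (median -0.11). The shares among all tested genes were 19.9% and 20.0%. The sterol enzyme Cyp51 was lower (-1.74 ± 0.21), while the desaturases Fads1 (2.44 ± 0.29) and Scd2 (1.42 ± 0.37, or 0.80 without monocyte replicate 4) were higher.

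Genes of glycolysis and of the response to low oxygen were higher for 25 of 30 tested members and lower for 3, with a median of 1.88 and of 1.50 to 1.83 within slides. Egln3, a hydroxylase that marks the hypoxia factor for breakdown and is itself induced by it, was at 3.10, 3.10, 2.00 and 2.02 in Arg1+ cells and at -3.17, -2.63 and -2.72 in monocytes (5.39 ± 0.39, limma adjusted p = 4.2e-08). Vegfa, which drives vessel growth, was at 5.32, 5.39, 5.37 and 5.16 against -0.02, 0.20 and 1.79, with monocyte replicate 4 the highest of the monocytes and still well below each Arg1+ array (4.65 ± 0.62). The members that were lower are the glucose transporter Slc2a3 (-2.98 ± 0.53, or -2.32 without monocyte replicate 4), the kinase Pfkfb4 (-1.74 ± 0.24) and the stress gene Ddit4 (-1.35 ± 0.33). Subunits of oxidative phosphorylation were higher for 11 of 34 and lower for 3, against 19.9% and 20.0% of all tested genes. Their median was 0.32, with slide medians of -0.01 to 0.89. Ndufs8 was higher by 1.87 ± 0.31 and Atp5b by 0.98, a call lost without Arg1+ replicate 2 or 4 or monocyte replicate 4 (0.68). Uqcrfs1 (-0.57 ± 0.15) and Ndufa4 (-0.66 ± 0.21) were lower, the latter lost without Arg1+ replicate 1 or 4 or monocyte replicate 4 (adjusted p up to 0.056).

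Genes of heme, iron and oxidative defence were higher for 18 of 25 tested members and lower for 3 (median 1.31). The metal-binding Mt2 was at 2.61, 2.76, 3.09 and 1.80 in Arg1+ cells and at -1.56, -1.83 and -2.53 in monocytes (4.54 ± 0.34, limma adjusted p = 7.18e-08), and its paralog Mt1, whose RNA its probe may share, was higher by 2.58 ± 0.22. Glutathione reductase, Gsr, was at 3.83, 3.42, 3.62 and 3.16 against 5.45 and 5.88 on 2 usable monocyte arrays (-2.16 ± 0.20). Catalase, Cat, which red cells carry in abundance, was at 0.90, 0.94, 1.47 and 0.88 against 1.68, 2.41 and 3.82 (-1.59 ± 0.38, or -1.0 without monocyte replicate 4). Cat moved together with the red cell markers given further on, and their part in it was not tested.

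Genes of the extracellular matrix and of repair were higher for 18 of 29 tested members and lower for 1 (median 1.65). Mmp14, a membrane-bound collagenase, was at 3.10, 3.00, 3.19 and 3.04 in Arg1+ cells and at -3.28, -2.96 and -2.94 in monocytes (6.15 ± 0.18, limma adjusted p = 4.6e-12). Adamts1, another secreted protease, was at 1.78, 1.72, 2.16 and 1.68 against the floor, at least 71.3-fold higher. The 1 lower member was the neutrophil collagenase Mmp8, at 2.06, 2.31, 2.29 and 1.58 against 2.62, 3.04 and 3.19 (-0.89 ± 0.22). Secreted growth factors were higher for 13 of 21 and lower for 1 (median 1.83). Areg, amphiregulin, a ligand of the receptor for epidermal growth factor, was at 0.04, -0.73, -1.27 and -0.58 against the floor, at least 12.9-fold higher. Flt1, the receptor listed with them because its soluble form binds Vegfa, was lower (-2.32 ± 0.62) and spread widely among Arg1+ arrays (-4.32, -3.11, -2.31 and -1.18).

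Most genes of the list for antigen presentation by class II molecules were lower. Of 15 tested genes 11 were lower and 2 higher, with a median of -1.36 and of -2.11 to -1.10 within slides. Ciita, the activator that switches these genes on, was at -2.92, -1.57, -1.66 and -2.13 in Arg1+ cells and at 1.68, 1.26 and 1.96 in monocytes (-3.71 ± 0.33, limma adjusted p = 4.04e-07), and it was lower than in Arg1- cells too (-4.10, adjusted p = 6.04e-06). H2-Ob, part of an inhibitor of peptide loading, was lower (-2.88 ± 0.49). The 2 higher genes encode the costimulatory ligands of T cells, Cd86 (1.91 ± 0.25) and Cd80 (1.02, adjusted p = 0.0106, lost without monocyte replicate 1 or 3). Dendritic cell markers were lower beside these genes, 6 of 10 with 1 higher and a median of -1.80, and their summed signal was 1.29 to 1.45 in Arg1+ cells against 4.87 to 6.12 in monocytes, in multiples of the 75th percentile. Dpp4 (-4.36 ± 0.34, between -3.09 and -1.54 from its other probes), the growth factor receptor Flt3 (-3.28 ± 0.31) and the lectin Cd209a (-2.97 ± 0.53) are examples, and their part in the class II result was not tested. Class I genes were mostly not called, 3 of 19 higher and 1 lower, against 19.9% and 20.0% of all tested genes. Their median of 0.01 turned to -0.28 with quantile normalization and -0.07 with normexp background correction. The higher ones were the chaperones Calr (1.59 ± 0.19) and Canx (0.97 ± 0.23) and the lipid-presenting Cd1d1 (1.53 ± 0.29), and the lower one was Tapbpl (-1.09 ± 0.21).

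**Figure D3:**
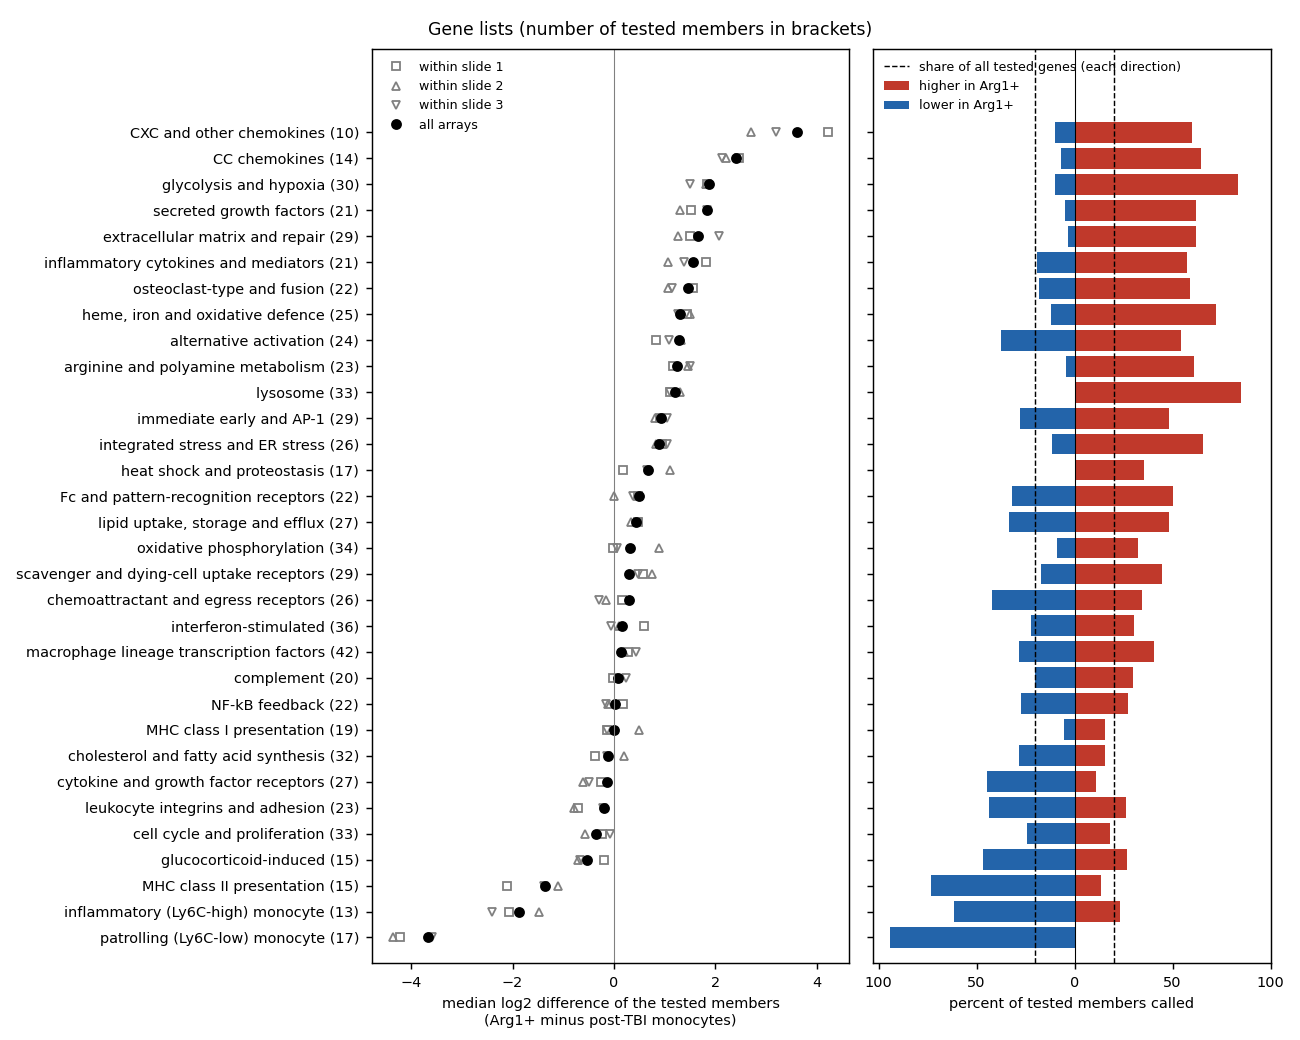
Left, median log2 difference of the tested members of 32 gene lists (Arg1+ minus post-TBI monocytes), from all arrays (filled) and within each of the 3 slides that held both groups (open). Right, percent of tested members called higher (red) and lower (blue), with dashed lines at the shares among all tested genes, 19.9% and 20.0%: glycolysis and lysosome lists extend farthest upward and the patrolling monocyte list farthest downward. All tested genes include probes without a symbol, which the lists do not hold.

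Complement genes were higher for 6 of 20 tested members and lower for 4 (median 0.08), against 19.9% and 20.0% of all tested genes. The chains of C1q, which starts the classical pathway, stood out in size: C1qa was at 4.24, 4.80 and 4.47 on 3 usable Arg1+ arrays and at -1.15, -2.31 and -2.83 in monocytes (6.60 ± 0.41, limma adjusted p = 4.54e-08). C1qb was at 6.61, 6.71, 7.07 and 6.66 against 1.77, 1.07 and 1.06 (5.46 ± 0.24). Clu, clusterin, was lower (-1.73 ± 0.59, adjusted p = 0.0296), a call that was lost without Arg1+ replicate 1 or 2 or monocyte replicate 4 (adjusted p up to 0.15).

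Genes induced by interferon were higher for 11 of 36 tested members and lower for 8, against 19.9% and 20.0% of all tested genes. Their median was 0.16, and -0.05 to 0.59 within slides. Oasl1 was at 2.23, 1.92, 1.94 and 2.10 in Arg1+ cells and at -0.31, -1.07 and -0.35 in monocytes (2.62 ± 0.29, limma adjusted p = 4.26e-06), and the attractant Cxcl10 was higher by 2.58 ± 0.39. The exonuclease gene Isg20 was at 1.69, 1.86, 1.97 and 1.77 against 4.21, 4.71 and 5.17 (-2.87 ± 0.35).

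Feedback genes of NF-kB signalling were evenly split, 6 of 22 higher and 6 lower, against 19.9% and 20.0% of all tested genes. Their median was 0.02, which turned to -0.07 with quantile normalization. Ier3, an early response gene that protects against cell death, was at 4.46, 3.36, 4.09 and 3.90 in Arg1+ cells and at -1.22, -0.25 and 0.59 in monocytes (4.24 ± 0.36, limma adjusted p = 5.38e-07), and Gadd45b was higher by 3.59 ± 0.32. The signalling adaptors Birc3 (-2.07 ± 0.22) and Traf1 (-1.34 ± 0.21) were lower. Immediate early genes were higher for 14 of 29 and lower for 8 (median 0.92). Jun, a subunit of the factor AP-1, was at 2.89, 2.73, 2.56 and 2.24 against -0.20, -0.48 and -0.96 (3.15 ± 0.23). Nr4a1, the nuclear receptor on which patrolling monocytes depend, was at 1.07, -1.21, 0.60 and 0.45 against 3.44, 2.99 and 3.07 (-2.94 ± 0.48), and Btg2 was lower (-1.54 ± 0.33).

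Genes of amino acid stress and of the endoplasmic reticulum were higher for 17 of 26 tested members and lower for 3 (median 0.89). Trib3, a target of the factor ATF4, was at -0.17, 0.09, -0.53 and -0.49 in Arg1+ cells and close to the floor in monocytes, at least 15.4-fold higher (limma adjusted p = 8.09e-09). Ddit4, which is on this list too, and Cebpb (-1.27 ± 0.27) were lower. Chaperones of the heat shock response were higher for 6 of 17 and lower for 0, against 19.9% and 20.0% of all tested genes. Their median was 0.67, with slide medians of 0.18 to 1.11. Hspb1 was higher by 2.19 ± 0.53 and the autophagy receptor Sqstm1 by 1.51 ± 0.19, and Hsp90aa1 (0.99 ± 0.21) and Hspd1 (0.98 ± 0.21) followed. Genes that glucocorticoids induce were higher for 4 of 15 and lower for 7, against 19.9% and 20.0% of all tested genes. Their median was -0.53, and the higher ones included Mt1 and Mt2 named above.

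Receptors for cytokines and growth factors were more often lower, 12 of 27 against 3 higher (median -0.14). Il4ra, the receptor chain for IL-4 and IL-13, was at 4.05, 3.87, 3.64 and 3.77 in Arg1+ cells and at 1.33, 1.33 and 1.36 in monocytes. Its arrays agreed closely within each group and the difference was 2.49 ± 0.14 (limma adjusted p = 4.33e-09). Il21r was higher by 1.60 ± 0.26. The largest falls on the list were Flt3 and Flt1, given above.

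Transcription factors of the macrophage lineage were higher for 17 of 42 tested members and lower for 12 (median 0.14). Bhlhe41, a repressor found in tissue macrophages, was at -0.94, -0.15, -0.38 and -0.39 in Arg1+ cells against the floor in monocytes, at least 14.5-fold higher (limma adjusted p = 2.91e-09). Sall1, which maintains microglial identity, was at -0.10, 0.18, -0.11 and -0.77 against -3.40, -4.05 and -4.24 (3.70 ± 0.33). Irf4 and Nr4a1 led the losses. Proliferation genes were higher for 6 of 33 and lower for 8, near the 19.9% and 20.0% of all tested genes. Their median was -0.36, which turned to 0.15 with normexp background correction. Mki67, a protein of dividing cells, was at -2.18, -1.65, -2.52 and -2.84 against -0.52, -0.68 and -0.32 (-1.79 ± 0.30, adjusted p = 0.000193), the mitotic motor Kif23 was lower (-2.47 ± 0.28) and Nusap1, of the mitotic spindle, was at least 4.18-fold lower (a call lost with normexp background correction, adjusted p = 0.0866). The replication helicase subunits Mcm3 (1.49 ± 0.29) and Mcm2 (1.28 ± 0.28) were higher.

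Markers of microglia were higher in Arg1+ cells. Of 15 tested markers 13 were higher and 1, Cx3cr1, was lower, with a median of 2.22, and their summed signal was 72.6 to 109.5 in Arg1+ cells, 58.4 to 80.1 in Arg1- cells and 28.0 to 30.0 in post-TBI monocytes. Tmem119, a surface protein of microglia, was at 2.51, 3.24, 3.09 and 2.57 in Arg1+ cells and at -0.87, -1.19 and -1.08 in monocytes (3.90 ± 0.19, limma adjusted p = 8.1e-10). Fcrls was at 3.63, 4.22, 4.15 and 3.56 against -2.35, -2.06 and -2.38 (6.15 ± 0.21, or 8.31 from its other probe). The secreted Olfml3 was higher by 5.29 ± 0.24 and Sparc, a matrix protein that endothelium also makes, by 4.42 ± 0.37. For Tmem119, Fcrls and Olfml3, Arg1+ replicates 2 and 3 were brighter than replicates 1 and 4. P2ry12, a receptor that homeostatic microglia carry, was at -1.75, -0.64, -0.86 and -1.58 and -1.87, -1.92 and -0.45, and its difference of 0.21 ± 0.41 did not pass (adjusted p = 0.743). Against Arg1- cells 0 of the 15 markers were called. C1qa, C1qb, Mertk and Sall1 are genes that microglia also carry, and the part of microglial RNA in these and the other gains was not tested.

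Most markers of red cells and of platelets were lower in Arg1+ cells. For red cells 4 of 5 tested markers were lower in Arg1+ cells and 0 higher (median -5.34), and the summed signal was 0.444 to 1.42 in Arg1+ cells against 65.6 to 124.7 in post-TBI monocytes. Alas2, the heme synthesis enzyme of red cell precursors, was at -2.36, -2.42, -1.83 and -0.48 in Arg1+ cells and at 5.70, 5.87 and 6.51 in monocytes (-7.80 ± 0.56, limma adjusted p = 4.48e-08). The anion exchanger Slc4a1 was lower (-6.35 ± 0.68), and the membrane protein Epb42 was at the floor on each Arg1+ array and at least 13.9-fold lower. For platelets 8 of 10 were lower and 0 higher (median -2.48), with a summed signal of 8.86 to 14.4 against 19.3 to 33.8. Clec1b (-4.61 ± 0.69), Itga2b (-3.62 ± 0.45) and Gp9 (at least 14.6-fold) are examples. Monocyte replicate 4 had the highest summed signal of both lists among the monocyte arrays. The losses of Alox12, Itgb3, Car2 and Cat run in genes that these cells carry, and their part in them was not tested.

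Of neutrophil markers 5 of 14 were lower and 2 higher, against 20.0% and 19.9% of all tested genes. Their median of -0.27 turned to 0.09 with normexp background correction. Their summed signal was 11.5 to 22.7 in Arg1+ cells and 23.4 to 108.4 in post-TBI monocytes. Retnlg was at -2.75, -1.47, -1.78 and -1.95 in Arg1+ cells and at 2.79, 2.96 and 6.23 in monocytes (-5.98 ± 0.62, or -4.87 without monocyte replicate 4 and -6.58 without replicate 1), and Cd177 was lower (-3.43 ± 0.25). The protease Mmp9 (1.93 ± 0.27) was higher, as was the granule protein Ltf (2.51, limma adjusted p = 0.0177), whose call was lost without Arg1+ replicate 2 (1.97) or monocyte replicate 1 (1.53, adjusted p = 0.11). Among eosinophil, basophil and mast cell markers 3 of 8 were lower and 0 higher (median -1.09), with a summed signal of 0.506 to 0.648 against 9.12 to 13.8. They were Ear6, Ccr3 and Siglecf (-2.89 ± 0.73, or -2.05 without monocyte replicate 4 and -3.50 without replicate 1).

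Most B cell markers were lower, as were some markers of T cells and natural killer cells. Of B cell markers 8 of 10 were lower and 0 higher (median -1.51, summed signal 3.01 to 3.42 against 7.69 to 8.25), among them the antigen receptor chains Cd79a (-2.92 ± 0.38) and Cd79b (-2.32 ± 0.22), the receptor Fcer2a and the coactivator Pou2af1 (-3.06 ± 0.33). Of T cell markers 6 of 11 were lower and 1 higher (median -1.02, summed signal 10.5 to 13.9 against 2.63 to 3.74), with Cd2 (-2.30 ± 0.46), Cd3e (-2.27 ± 0.39) and Cd3g (at least 4.12-fold) lower. The summed signal of the T cell list was nonetheless higher on every Arg1+ array than on any monocyte array. Most of it on each Arg1+ array came from 1 gene, Il7r, so the sum does not stand for the list. The 1 higher marker was Il7r, the receptor of a lymphocyte survival cytokine, at 3.10, 3.67, 3.32 and 3.20 in Arg1+ cells and at -3.42, -3.40 and -2.57 in monocytes (6.45 ± 0.29, limma adjusted p = 3.51e-10). It rose while Cd3e and Cd3g were at or near the floor in Arg1+ cells. Of natural killer cell markers 5 of 13 were lower and 0 higher (median -0.80, summed signal 1.46 to 2.15 against 2.39 to 4.78), including Klrd1 (-2.34 ± 0.48), Il2rb (-2.35 ± 0.42), Nkg7 (at least 4.79-fold) and Gzma (at least 5.35-fold). The calls of Cd3e, Fcer2a, Klrd1, Nkg7 and Gzma were lost with normexp background correction (adjusted p 0.0765 to 0.211). Without monocyte replicate 1 the fitted difference of Gzma was -3.37 in place of -2.63.

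Some markers of other brain cells were higher in Arg1+ cells. Of all tested genes 19.9% were higher and 20.0% lower. The counts for oligodendrocytes and for endothelium and pericytes are near these shares. Of neuron markers 5 of 11 were higher and 1 lower (median 0.83), with a summed signal of 2.81 to 5.27 against 1.79 to 2.39. The synaptic Snap25 was at -3.00, -0.81, -0.06 and -0.73 in Arg1+ cells and at the floor in monocytes, at least 9.01-fold higher (limma adjusted p = 0.000139), with replicate 1 the dimmest Arg1+ array (fitted difference 3.17, or 3.79 without it). Stmn2 was higher by 2.60 ± 0.41 and Nefl at least 3.77-fold, while Gad1 was at least 6.92-fold lower. Of astrocyte markers 6 of 11 were higher and 1 lower (median 1.15, summed signal 4.31 to 8.01 against 3.07 to 4.99). The glutamate transporter Slc1a2 was at -0.51, 1.04, 0.23 and 0.74 against the floor, at least 25.9-fold higher (fitted difference 4.70, or 1.70 from its other probe), and Aldoc (1.63 ± 0.38) and Sparcl1 (at least 3.54-fold, with overlap, adjusted p = 0.0403, lost without any 1 of Arg1+ replicates 2 to 4 or of the monocyte arrays) were higher. The fitted difference of Sparcl1 was 1.82, or 2.43 without Arg1+ replicate 1, and its call was lost with slide as a fixed block (adjusted p = 0.0529). Of oligodendrocyte markers 2 of 8 were higher and 1 lower (median 0.13, summed signal 7.54 to 8.88 against 22.9 to 31.4). Mobp, a myelin protein, was higher (1.97 ± 0.45, or 0.38 from its other probe). The brightest probe of Mbp, myelin basic protein, was at 1.59, 1.51, 1.88 and 1.37 in Arg1+ cells and at 4.27, 4.25 and 4.49 in monocytes (-2.75 ± 0.15), but its 2 other probes gave differences of 2.71 and 2.82 in the other direction. That brightest probe made up most of the summed oligodendrocyte signal in monocytes, so the lower sum in Arg1+ cells rests on it. Of endothelial and pericyte markers 3 of 10 were higher and 2 lower (median -0.43, summed signal 6.21 to 12.6 against 8.29 to 10.2), with Kdr at least 21.5-fold higher, Cldn5 higher by 1.98 (adjusted p = 0.0464, lost in 14 of 27 alternatives, among them without Arg1+ replicate 4, at 1.36, and without Arg1+ replicate 3 or any 1 monocyte array) and Pdgfrb lower (-1.41 ± 0.50, adjusted p = 0.0361, lost without any 1 of Arg1+ replicates 1 to 3 or of the monocyte arrays). With normexp background correction the difference of Pdgfrb was -0.24 (adjusted p = 0.558), and with the replicate number as a block its call was lost (-1.33, adjusted p = 0.0507). The part of RNA from these cells in the gains was not tested.

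**Figure D4:**
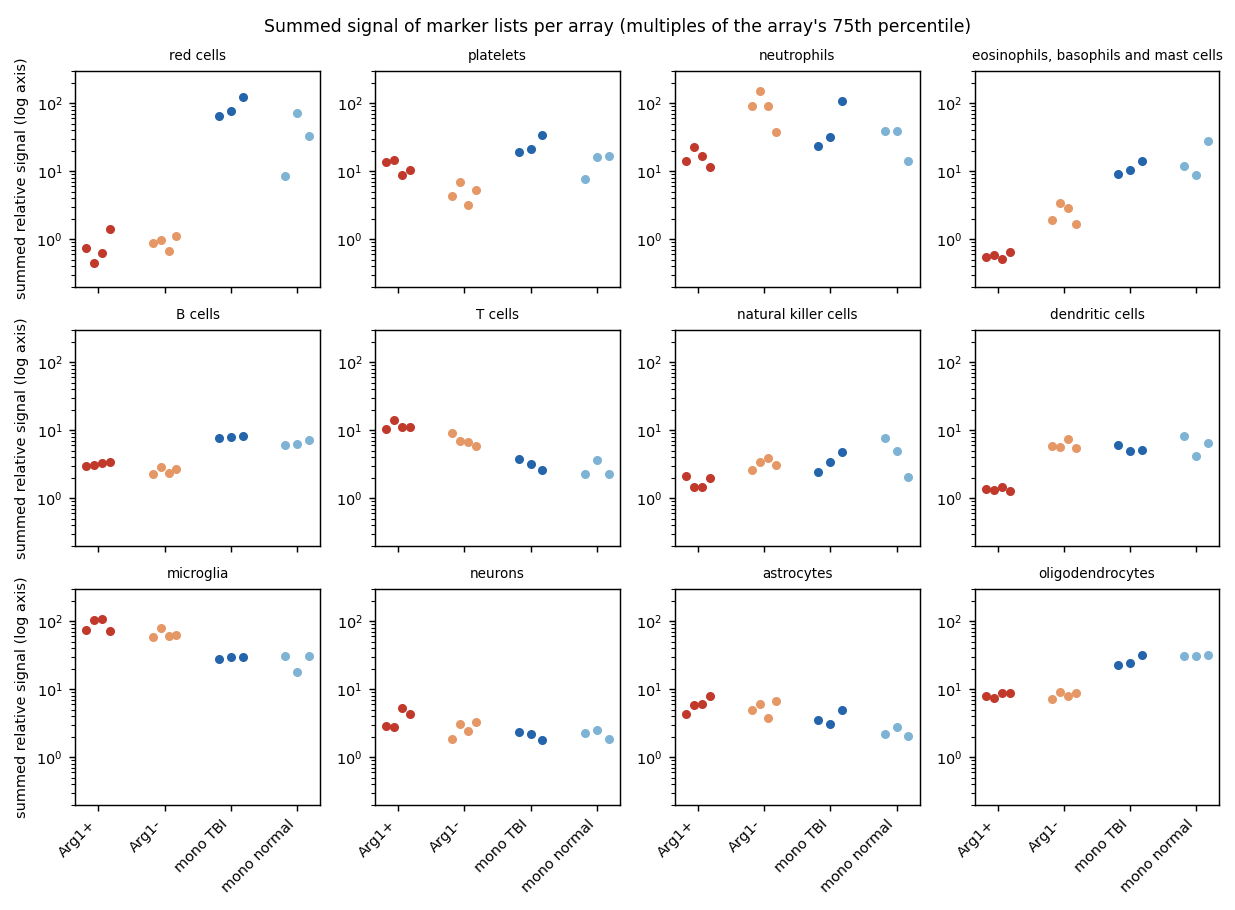
Summed signal of 12 marker lists on each array of the 4 groups, in multiples of the array's 75th percentile on a log axis. Red cell markers sum to 0.444 to 1.42 in Arg1+ cells and 65.6 to 124.7 in post-TBI monocytes, and microglia markers to 72.6 to 109.5 and 28.0 to 30.0.

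The genes whose levels over the arrays were most like those of the 4 markers were found by Pearson's r, and they describe 14 arrays that fall into brain and blood groups. Closest to Arg1, over the 13 arrays with a usable spot, were Dhrs9 (0.996), a dehydrogenase, Cxcl3 (0.994) and Tmeff1 (0.994). Dhrs9 was at -0.81, -0.93, -1.09 and -1.21 in Arg1+ cells and at the floor in post-TBI monocytes, at least 9.92-fold higher, and Tmeff1 was higher by 5.18 ± 0.21, or 1.58 from its other probe (limma adjusted p = 8.65e-11). Closest to Spp1 were Snx24 (0.999), Lhfpl2 (0.999) and Ccl12 (0.999), and Lhfpl2 was at least 111-fold higher. Closest to Gpnmb, over 13 arrays, were Piwil2 (0.991), Myo1e (0.991), a membrane-bound motor protein that was higher by 6.60 ± 0.20, and Lhfpl2 (0.989). Closest to Ace were the transglutaminase Tgm3 (0.991), which was at -4.10, -3.89, -3.78 and -3.13 in Arg1+ cells and at 1.17, 1.91 and 2.10 in monocytes (-5.45 ± 0.27), Cd300lg (0.985) and Ear10 (0.983).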

How the data were processed

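RNA of sorted cells was amplified, labelled with Cy3 and hybridised to 1-colour Agilent mouse arrays. The authors deposited 1 scanner file per array from Feature Extraction 10.7.3.1, with background-corrected intensity and flags per spot, per the file headers. They also deposited a table of log2 values, whose ranks follow the scanner's median signal (Spearman at least 0.99997) and whose column medians are 6.13 to 6.17. Its background correction and normalization are not given in the sources used here. The submitters' processing notes name limma, with no version.

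From the processed signal, log2 was taken relative to the 75th percentile of all non-control probes on the array, after a floor of 0.05, and spots flagged as outliers were left out. Probes needed 2 usable arrays per group and a signal well above background on 3 of the 14 arrays, which kept 27612 of 41174. Names came from RefSeq accessions (GRCm38.p6), and the brightest probe stood for each gene, leaving 21972 genes, 12966 with a symbol. Among named genes with other probes, those of 1 (Mbp) had the opposite direction. For 8 of the 53 such genes reported here (Gpnmb, Tmeff1, Slc1a2, Dpp4, Syngr1, Trib3, Adamts1 and Fcrls), another probe gave the same direction but lay more than 2 log2 units from the brightest.

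limma 3.58.1 (R 4.3.3; lmFit and eBayes with a trend) fitted all 14 arrays in 4 groups, with 10 residual degrees of freedom, and was tested on simulated data. The 75th percentile signal was 119.4 to 418.5, the share of probes well above background was 50.4% to 68.7%, saturation was absent, and the number of arrays limits the precision.

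The members and lists were chosen with earlier results of these data known. Named genes were the 4 markers, the 12 largest non-overlapping calls in each direction, up to 4 called members per list, a set of fixed genes, and the 3 genes most like each marker. Of the fixed genes, Hmox1 and Ly6g had no tested probe under their symbol, and results of some named genes are not reported here. Same-numbered arrays of the 2 groups did not deviate together (r -0.0857, -0.199 and -0.203), while same-slide arrays had r of 0.162, 0.192 and 0.252. Alternatives changed the normalization, background correction, floor, filter, probe rule, arrays fitted, slide or replicate block and threshold.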

Additional observations from a re-analysis of the deposited data

Results flagged for a closer look

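For 8 of the named genes reported here, 1 of the 4 Arg1+ arrays lay far from the other 3 on the log2 scale, by Dixon's test. Chance gives this in about 1 in 20 groups, and 190 genes were examined, so a count of this size can come from chance alone. Replicate 1 stood apart for Cd14 (5.056, against 4.124 to 4.242) and Il1b (2.001, against 0.6704 to 0.8952). Replicate 2 stood apart for Ccl7 (4.973, against 4.432 to 4.522), Cx3cr1 (3.107, against 2.049 to 2.172), Mmp9 (2.581, against 2.081 to 2.144) and Cyp51 (-1.28, against -1.822 to -1.732). Replicate 3 stood apart for Cat (1.465, against 0.878 to 0.9382) and replicate 4 for Dab2 (4.507, against 4.96 to 5.035).

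For 2 genes the Arg1+ and Arg1- brain macrophages lay on opposite sides of the post-TBI monocytes, and the difference between the brain groups passed limma's test. Traf1, a signalling adaptor, differed from monocytes by -1.34 in Arg1+ cells and by 1.08 in Arg1- cells, an Arg1+ minus Arg1- difference of -2.421 (limma adjusted p = 1.02e-05). Cd36, the scavenger receptor, differed by 0.78 and -1.43, an Arg1+ minus Arg1- difference of 2.213 (limma adjusted p = 8.29e-05). For Cd36 the Arg1+ and monocyte arrays overlapped, and the call between them was lost in 8 of 27 alternatives.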

How the results depend on the processing

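The count of 8770 called genes was 7148 to 9887 over the alternatives other than normexp background correction (6247) and a test against a log2 difference of 1 (1905), and 7274 to 8677 with 1 array left out. The higher calls numbered 1023 in the test against 1, and 3621 to 4378 with 1 array left out. The lower calls numbered 2740 with normexp and 882 in the test against 1, and 3653 to 4379 with 1 array left out. With normexp 56.1% of calls were higher, against 49.9%. The 1108 genes called against Arg1- cells became 525 with normexp, 61 in the test against 1, and 602 to 1790 with 1 array left out (602 without Arg1- replicate 3, 698 without Arg1+ replicate 3, 1790 without post-TBI monocyte replicate 4). Leaving out arrays of the groups not compared was added after seeing the data. With the replicate number as a block the counts were 8093 and 830, but the numbers do not pair the samples.

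Of 186 named called genes, 132 kept direction and call in all 27 alternatives, 53 lost the call in at least 1, and 1 reversed: Mbp, at 0.93 as the mean of its probes (limma adjusted p = 0.0699). Many of the 53, such as Aldoc, Calr and Cx3cr1, lost it only in the test against a log2 difference of 1. That test asks a stricter question and does not measure dependence on processing. P2ry12, not called, was at -0.019 without monocyte replicate 1, -0.048 without replicate 3 and 0.69 without replicate 4. Differences of genes at the floor are bounds, and signal over background limits what can be said of them.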
